A study of Homo sapiens with 18 samples.

Results

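The Frizzled (FZD) family comprises the 10 receptor genes FZD1 to FZD10. All 10 were found by symbol among the 57133 genes of the count table, and all 10 passed the filter on low counts that left 17672 genes for testing. FZD10 passed it only through libraries of PCGF6-knockout (PCGF6-KO) cells. RNA-seq was performed on PGP1, an established human induced pluripotent stem cell (PSC) line, kept in mTeSR1 medium on Matrigel-coated plates. The groups were unedited wild-type cells (WT, 2 libraries) and 2 knockout clones, KO_1 (clone 1, 2 libraries) and KO_2 (clone 2, 2 libraries), in which CRISPR-Cas9 with paired guides removed part of the first PCGF6 exon on both alleles. Each clone was grown from a single sorted cell, so a difference seen in 1 clone may belong to that clone. Where the clones are pooled, the 4 PCGF6-KO libraries stand for 2 clones and not for 4 replicates of the genotype. Nothing in the labels says whether the 2 libraries of a group came from separate cultures, so the p-values measure the spread between these libraries. The remaining 12 samples of the series are ChIP-seq or input samples and were not analysed here.

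Frizzled proteins are multi-pass membrane receptors whose extracellular cysteine-rich domain binds the lipid-modified WNT ligands. Together with the co-receptors LRP5 and LRP6 they recruit Dishevelled and stabilise β-catenin, and through other partners they act in planar cell polarity. In human PSCs, WNT/β-catenin signaling drives the exit toward mesendoderm, so the question here is which receptors these cells carry and whether the set differs when PCGF6, the defining subunit of the Polycomb complex PRC1.6, is disrupted.

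Of the 10 FZD genes, 3 were called higher in PCGF6-KO (FZD1, FZD9 and FZD10), 2 were called lower (FZD5 and FZD7) and 5 were not called. A call required an adjusted p (Benjamini-Hochberg, over all tested genes, edgeR's quasi-likelihood test) under 0.05 and a log2 fold change (LFC) beyond 0.6 in size. Over all tested genes, 14.9% were called higher, 8.7% lower and 23.6% in either direction. The median LFC was 0.26 over the 10 FZD genes and 0.0037 over all tested genes. Without the LFC threshold, 8 FZD genes had an adjusted p under 0.05, against 37.1% of all tested genes. This count fell to 5 by DESeq2 and with upper-quartile normalization, to 3 without replicate 1 or 2 of WT, and to 5 and 4 without replicate 1 and 2 of clone 2. The matching share of all tested genes is not given for these fits. In each of them, fewer of all genes were called higher than in the main fit. Fewer were also called lower, except with upper-quartile normalization. Those counts over all genes carry the LFC threshold and are not the matching share. Whether the FZD count fell by more than that share was not tested. The 4 PCGF6-KO libraries lay above both WT libraries for 5 FZD genes and below them for 3, so that 8 did not overlap. Over all tested genes 29.5% lay above, 27.6% below and 57.1% did not overlap. In separate comparisons, clone 1 had 3 FZD genes called higher and 1 lower, against 16% and 8.8% of all tested genes, and clone 2 had 2 called higher and 2 lower, against 16.9% and 12.5%. Both clones agreed in direction for the calls of FZD1, FZD5 and FZD10. Clone 2 against clone 1 had 1 FZD gene higher and 1 lower, against 3.73% and 4.14%. Both clones were compared with the same WT libraries, so their fold changes are not independent.

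The libraries held between 15877396 and 18918609 counts. For PCGF6 itself, WT had 268 and 300 counts, clone 1 had 99 and 103, and clone 2 had 187 and 159, counted over the whole gene and not over the deleted stretch alone. Of 14 pluripotency markers tested, 5 (35.7%) were called lower in PCGF6-KO, where 8.7% of all tested genes were, and 9 were not called. Their summed level ran from 11872 to 12350.1 CPM (counts relative to the TMM-scaled library size) in WT, 10190.3 to 10274 in clone 1 and 9182 to 9483 in clone 2. The 5 called lower were SOX2, ZFP42, DNMT3B, PRDM14 and FOXD3. DNMT3B, the most abundant of the 14 (average log2 CPM 10.9), had an LFC of −1.14 and weighs much in the sums. The LFCs of the 9 not called lay between −0.44 (DPPA4) and 0.44 (PODXL), with POU5F1 at 0.01 and NANOG at 0.40. All 12 mesendoderm markers tested were called higher, as were 14.9% of all tested genes. Their sum, with MESP1 included, was 19.1 and 19.6 CPM in WT, 816 CPM in both libraries of clone 1 and 1074 and 1083 CPM in clone 2. SOX17, HAND1 and MESP1 were at 0 counts in both WT libraries. Of these, SOX17 and HAND1 were tested, passed the filter only through PCGF6-KO libraries and could only be called higher. No WT library held more than 3 counts for 4 of the 12 tested mesendoderm markers, SOX17 and HAND1 among them. For these 4 the filter left a call in the higher direction close to fixed, and for the rest this is not given here. A floor of 3 counts per WT library moved the median LFC of the list from 7.12 to 5.22. Of 10 neuroectoderm markers tested, 5 (50%) were called higher and 3 (30%) lower. The sums were 602 to 633 CPM in WT, 758 to 844 in clone 1 and 780.1 to 865 in clone 2. NES, the most abundant of these markers (average log2 CPM 9.05), was called higher (LFC 1.11) and weighs most in the sums. The 3 called lower were OTX2, ZIC2 and POU3F1, with LFCs of −1.26, −1.12 and −2.13. HES5 was the neuroectoderm marker at 0 counts in WT, and no pluripotency marker was at 0. These marker levels differed between the same groups of libraries as the FZD levels given here, and their part in those differences was not tested. In bulk RNA, more cells of a type and more RNA per cell cannot be told apart.

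**Figure D1:**
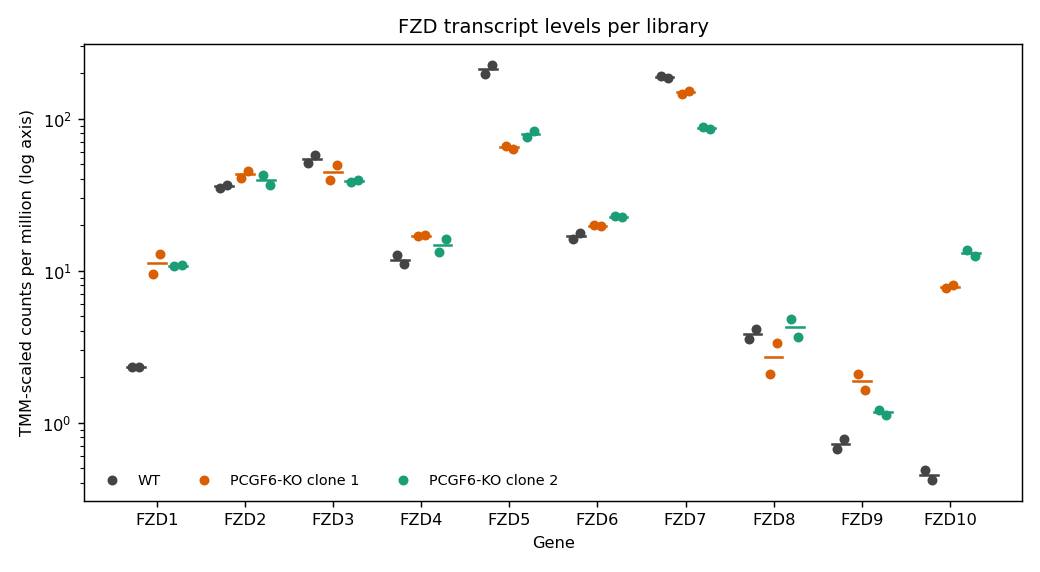
TMM-scaled CPM on a log axis for each FZD gene in each library, with short lines at the mean of each pair of libraries. FZD5 and FZD7 were the highest in WT and lower in all 4 PCGF6-KO libraries, while FZD1 and FZD10 were several times higher in both clones.

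To compare the receptors with each other, levels were divided by the gene length deposited beside the counts. In WT, FZD7 was highest with 48.7 ± 0.911 CPM per kilobase (SD, n = 2), followed by FZD5 with 31.6 ± 2.99 and FZD2 with 17.0 ± 0.558. FZD6 (4.18 ± 0.286) and FZD3 (3.93 ± 0.343) came next, and the ranges of these neighbours overlapped. FZD4 (1.599 ± 0.150), FZD8 (0.955 ± 0.101), FZD1 (0.335 ± 0.000343), FZD9 (0.311 ± 0.0313) and FZD10 (0.139 ± 0.0155) followed, without overlap between neighbours. FZD7 and FZD5 together made up 73.8% ± 0.284 of the summed FZD level per kilobase in WT (n = 2), 57.1% ± 1.13 in clone 1 and 48.8% ± 1.53 in clone 2.

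In clone 1 the order per kilobase began with FZD7 (38.5), FZD2 (20.4), FZD5 (9.65) and FZD6 (4.86), and in clone 2 with FZD7 (22.6), FZD2 (18.7), FZD5 (11.9) and FZD6 (5.55). FZD10 moved from the last place in WT to the 6th in clone 1 (2.39 CPM per kilobase) and the 5th in clone 2 (3.97). The ranges of neighbours overlapped only for FZD9 and FZD8 in clone 1. FZD2 is sensitive to the length used, since its deposited length is 2112 bases and its GENCODE 44 exons span 3779 bases. With GENCODE 44 lengths FZD2 had 9.50 CPM per kilobase for WT, 11.4 for clone 1 and 10.5 for clone 2, and in clone 2 it then overlapped FZD5 (11.3).

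**Figure D2:**
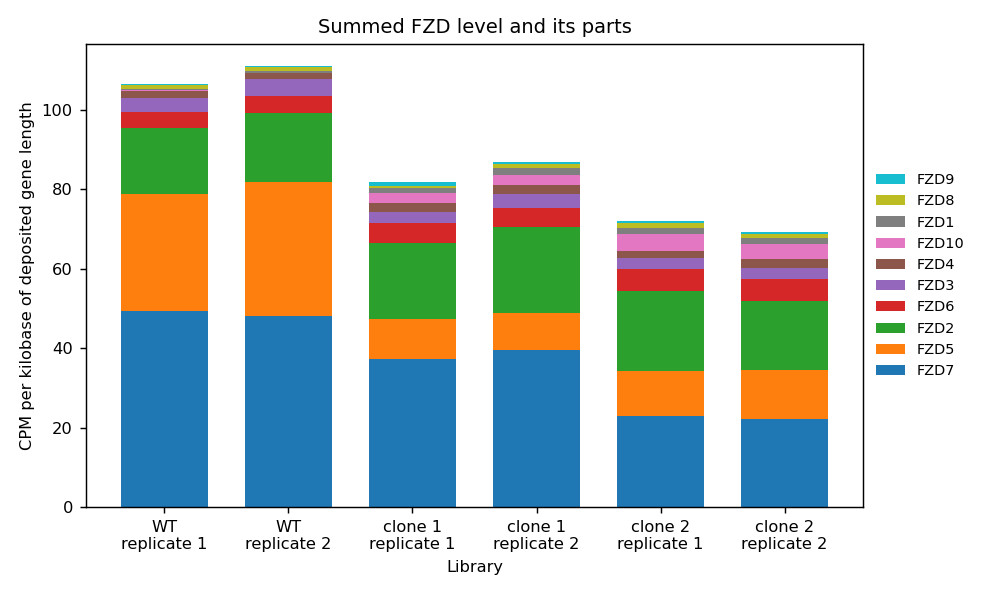
Stacked bars of the 10 FZD genes in CPM per kilobase of deposited gene length, 1 bar per library. The bars summed to 106 and 111 (WT), 81.7 and 87.0 (clone 1), 71.9 and 69.2 (clone 2), with every WT bar on top, and the largest loss was that of FZD5 in clone 1 and that of FZD7 in clone 2.

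The sum over the family was 109 ± 3.23 CPM per kilobase in WT (n = 2), 84.3 ± 3.70 in clone 1 (n = 2) and 70.6 ± 1.94 in clone 2 (n = 2), and the 3 groups did not overlap. This was a log2 ratio to WT of −0.37 for clone 1 and −0.62 for clone 2. FZD1, FZD9 and FZD10, the receptors called higher, together made up 0.722% ± 0.00661 of the sum in WT, 5.68% ± 0.104 in clone 1 and 8.52% ± 0.121 in clone 2. FZD2, which was not called, went from 15.6% ± 0.0487 of the sum in WT to 24.1% ± 0.761 in clone 1 and 26.5% ± 1.98 in clone 2. With GENCODE 44 lengths these shares were 10.3%, 16.5% and 17.96%, and without division by length 6.83%, 11.9% and 12.7%.

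Promoters of FZD1, FZD5 and FZD9, members called in PCGF6-KO that had an entry in the RefSeq promoter table, are shown because the study relates PRC1.6 to the E-box CACGTG bound by MAX and to GCGGGAA bound by E2F6. FZD4 and FZD8 also had an entry, and no promoter of FZD2, FZD3, FZD6, FZD7 or FZD10 was examined. The sequences are the 250 bases upstream of the gene start (GRCh38.p14), 5′ to 3′ on the strand of the gene, at chr7:91264183-91264432 for FZD1, chr2:207769907-207770156 (reverse strand) for FZD5 and chr7:73433528-73433777 for FZD9. Capitals mark a match to either motif on either strand.
FZD1: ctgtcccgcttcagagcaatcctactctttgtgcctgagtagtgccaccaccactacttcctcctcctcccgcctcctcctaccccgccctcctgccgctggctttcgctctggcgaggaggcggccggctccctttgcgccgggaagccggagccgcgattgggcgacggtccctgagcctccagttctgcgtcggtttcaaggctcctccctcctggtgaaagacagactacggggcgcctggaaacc
FZD5: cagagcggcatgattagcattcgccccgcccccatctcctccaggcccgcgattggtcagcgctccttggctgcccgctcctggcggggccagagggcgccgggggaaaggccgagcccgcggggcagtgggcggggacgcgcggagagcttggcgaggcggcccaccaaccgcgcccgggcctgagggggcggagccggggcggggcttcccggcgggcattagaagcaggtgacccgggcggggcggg
FZD9: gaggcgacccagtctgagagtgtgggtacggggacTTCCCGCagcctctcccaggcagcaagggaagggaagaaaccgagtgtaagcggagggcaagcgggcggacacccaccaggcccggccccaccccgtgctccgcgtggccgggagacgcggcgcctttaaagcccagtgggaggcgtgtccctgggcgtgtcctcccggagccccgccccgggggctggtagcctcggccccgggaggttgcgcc

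FZD9 held 1 match to GCGGGAA, on the reverse strand and starting 215 bases before the gene start, and none to CACGTG. FZD1, FZD4, FZD5 and FZD8 held neither motif in this window. Over the 35116 promoters of the table, 6.34% held CACGTG in the same 250 bases, 5.52% held GCGGGAA and 11.4% held either. All 5 windows were rich in CpG dinucleotides, with 19 in FZD1, 33 in FZD4, 30 in FZD5, 24 in FZD8 and 23 in FZD9, against a median of 11 over all promoters.

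By coding sequence the family falls into groups of close relatives, and the members are described in that order. FZD1, FZD2 and FZD7 form one such group, with 79.3% identity between FZD2 and FZD7 and 71.3% between FZD1 and FZD7, and each is a single-exon gene. Reads could be shared between them to a small extent, since 32 of the 6845 distinct 50-base stretches of FZD1, 55 of the 3730 of FZD2 and 20 of the 4538 of FZD7 also occur in another FZD transcript.

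FZD7, known as a major WNT receptor of human PSCs, lies on chromosome 2 from 202033855 to 202038441 (GRCh38, forward strand). Both WT libraries had close to equal counts (3099 and 3093), clone 1 had 2760 and 2776, and clone 2 had 1608 and 1372, which is 188 ± 3.52, 149 ± 5.91 and 87.1 ± 2.24 CPM (SD, n = 2 each). The 3 groups did not overlap, and the clones stood apart from each other by more than clone 1 did from WT. Clone 2 was 2.16-fold lower than WT (LFC −1.11, SE 0.06, adjusted p = 6.0e-14). In clone 1 the LFC was −0.34 (adjusted p = 5.7e-05), under the LFC threshold. The LFC of clone 2 against clone 1 was −0.77 (SE 0.06, adjusted p = 1.5e-09). With the clones pooled, the LFC was −0.67 (SE 0.22, adjusted p = 0.0435), and this call was lost by DESeq2 (adjusted p = 0.0974), without replicate 1 or 2 of WT (0.183 and 0.168) and without replicate 1 or 2 of clone 2 (0.0742 and 0.0629).

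FZD1, which can signal through β-catenin, lies on chromosome 7 from 91264433 to 91271326 on the forward strand. WT had 38 and 39 counts, clone 1 had 181 and 234, and clone 2 had 194 and 174. These correspond to 2.34 ± 0.00239 CPM in WT, 11.2 ± 2.41 in clone 1 and 10.8 ± 0.103 in clone 2 (n = 2 each), and every PCGF6-KO library was above every WT library. The mean over the 4 PCGF6-KO libraries was 4.70-fold that of WT, an LFC of 2.23 (SE 0.19, adjusted p = 2.8e-05). The clones did not differ detectably, with a log2 difference of −0.05 and a 95% interval from −0.36 to 0.26 (adjusted p = 0.864).

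FZD2, a receptor linked to WNT5A signaling, lies on chromosome 17 from 44557484 to 44561262 on the forward strand. WT had 571 and 613 counts, clone 1 had 778 and 823, and clone 2 had 768 and 588. In CPM, 1 library of clone 2 (36.65 CPM) fell below the higher WT library (36.73 CPM), and the other PCGF6-KO libraries were above both. The LFC of PCGF6-KO was 0.20 with a 95% interval from −0.02 to 0.42 (adjusted p = 0.133).

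FZD5 and FZD8 are each other's closest relatives, with 66.5% identity of the coding sequence. FZD5, which has its coding sequence in 1 exon and is known for roles in the eye and the intestine, lies on chromosome 2 from 207762598 to 207769906 on the reverse strand. WT had 3219 and 3772 counts, clone 1 had 1272 and 1145, and clone 2 had 1381 and 1331, which is 212 ± 20.0 CPM in WT, 64.8 ± 2.50 in clone 1 and 79.6 ± 4.80 in clone 2 (n = 2 each). The PCGF6-KO libraries all lay far below WT, and those of clone 1 below those of clone 2. The WT mean was 2.94-fold that of the PCGF6-KO libraries, an LFC of −1.55 (SE 0.11, adjusted p = 9.4e-06). The LFC was between −1.65 and −1.45 under the 14 alternatives tried, which include the main fit with the LFC threshold dropped. The difference of 0.30 between the clones (95% interval 0.14 to 0.45, adjusted p = 0.00585) stayed under the LFC threshold.

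FZD8, a high-affinity WNT receptor, lies on chromosome 10 from 35638247 to 35642296 on the reverse strand, where its exon overlaps the microRNA gene MIR4683 and an unnamed gene on the other strand. Its counts were low, WT having 58 and 69, clone 1 having 40 and 61 and clone 2 having 87 and 59, and the groups overlapped when the clones were pooled. The LFC of PCGF6-KO was −0.15 (95% interval −0.83 to 0.54, adjusted p = 0.738), which leaves changes in either direction possible at this depth. It was the only member whose sign differed between the clones, at −0.50 in clone 1 and 0.15 in clone 2. The difference between the clones of 0.65 (SE 0.24) had an adjusted p of 0.0573, was called without replicate 2 of clone 1 (1.02, adjusted p = 0.0131) or of clone 2 (0.82, adjusted p = 0.0456) and without the filter on low counts (0.66, adjusted p = 0.0308). Clone 1 against WT was called without replicate 2 of clone 1 (−0.86, adjusted p = 0.0192).

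FZD9 and FZD10 share 72.1% of their coding sequence, and no 50-base stretch of either occurs in a transcript of another gene. FZD10 lies on chromosome 12 from 130162459 to 130165740 on the forward strand. WT had 8 and 7 counts, both libraries of clone 1 had 146, and clone 2 had 246 and 200. The mean level was 0.455 ± 0.0508 CPM for WT, 7.83 ± 0.280 for clone 1 and 13.0 ± 0.779 for clone 2 (n = 2 each), and the 3 groups did not overlap.

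The mean over the PCGF6-KO libraries was 22.9-fold that of WT, an LFC of 4.49 (SE 0.39, adjusted p = 3.6e-05), the largest in the family in this comparison. Against WT, clone 1 had an LFC of 4.08 (SE 0.26, adjusted p = 7.8e-13) and clone 2 of 4.82 (SE 0.24, adjusted p = 3.8e-15). FZD10 was higher in clone 2 than in clone 1 by 0.73 (SE 0.14, adjusted p = 0.000401). FZD10-DT, the divergent transcript listed beside it, had 1 count in WT replicate 1, 0 in replicate 2, 10 and 12 for clone 1 and 12 and 14 for clone 2. It lay higher in every PCGF6-KO library than in WT and was called higher (adjusted p = 0.00311 by the same test). FZD10 and FZD10-DT both passed the filter on low counts only through PCGF6-KO libraries. A call in the higher direction against WT was therefore close to fixed for FZD10 as for FZD10-DT.

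FZD9, a receptor gene of the Williams syndrome region, lies on chromosome 7 from 73433778 to 73436120 on the forward strand and had at most 40 counts in any library. WT had 11 and 13 counts, clone 1 had 40 and 30, and clone 2 had 22 and 18. Mean levels were 0.727 ± 0.0732 CPM for WT, 1.87 ± 0.312 for clone 1 and 1.17 ± 0.0647 for clone 2 (n = 2 each), and every PCGF6-KO library was above both WT libraries. In clone 1 alone the LFC was 1.36 (SE 0.37, adjusted p = 0.00358), and in clone 2 it was 0.68 with a 95% interval from −0.15 to 1.51. The call with the clones pooled (LFC 1.06, adjusted p = 0.0497) was lost by DESeq2 (adjusted p = 0.118), with upper-quartile normalization (0.0575), without the filter on low counts (0.0569), without replicate 1 or 2 of WT (0.231 and 0.167) and without replicate 1 or 2 of clone 1 (0.0891 and 0.0830).

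FZD4, FZD3 and FZD6 were not called in any of the 4 comparisons. FZD4, which also binds norrin, the product of NDP, lies on chromosome 11 from 86945679 to 86955395 on the reverse strand and overlaps PRSS23, and 18.5% of its 50-base stretches also occur in another gene. It had 11.8 ± 1.11 CPM in WT, 16.9 ± 0.187 in clone 1 and 14.8 ± 2.02 in clone 2 (n = 2 each), and each PCGF6-KO library was above both WT libraries. The LFC of 0.42 (adjusted p = 0.0375) was under the LFC threshold. Its adjusted p was 0.0529 with upper-quartile normalization, 0.095 and 0.257 without replicate 1 and 2 of WT, 0.0635 and 0.0663 without replicate 1 and 2 of clone 1, and 0.0638 without replicate 2 of clone 2. The LFC of clone 1 passed it only without replicate 1 of WT (0.62, adjusted p = 0.0019).

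FZD3 and FZD6 are best known from planar polarity and are the only members whose coding sequence is spread over 6 exons. Both lie on chromosome 8, FZD3 from 28494205 to 28574267 and FZD6 from 103298433 to 103332866, and FZD6 overlaps BAALC-AS1. FZD3 had 54.2 ± 4.72 CPM in WT, 44.4 ± 6.70 in clone 1 and 38.6 ± 0.851 in clone 2, an LFC of −0.38 (SE 0.11, adjusted p = 0.0270). FZD6 had the opposite sign, from 17.0 ± 1.16 CPM in WT to 19.8 ± 0.0913 in clone 1 and 22.6 ± 0.202 in clone 2, an LFC of 0.32 (SE 0.11, adjusted p = 0.0466). Both differences were smaller than the LFC threshold, and their adjusted p passed 0.05 only in some fits. For FZD3 it was 0.0652 and 0.235 without replicate 1 and 2 of WT and 0.0601 and 0.0566 without replicate 1 and 2 of clone 2. For FZD6 it was 0.0832 by DESeq2, 0.0614 with upper-quartile normalization, 0.0833 without the filter on low counts, 0.291 and 0.109 without replicate 1 and 2 of WT, and 0.0831 and 0.0862 without replicate 1 and 2 of clone 2.

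**Figure D3:**
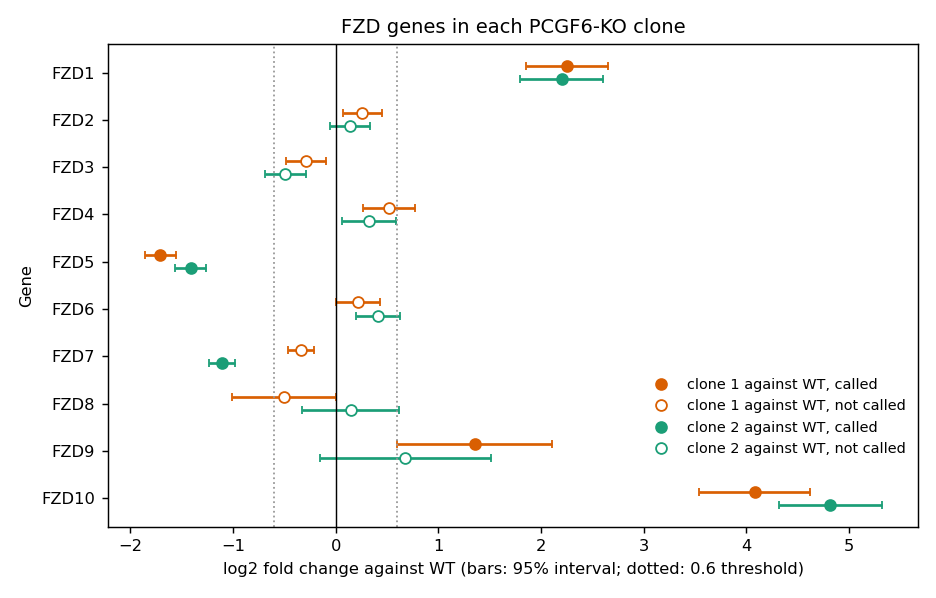
Log2 fold change of each FZD gene in clone 1 and in clone 2 against the shared WT libraries, with 95% intervals, where filled points were called and dotted lines mark the 0.6 threshold. FZD1 and FZD10 lay far to the right and FZD5 to the left in both clones, while FZD7 was past the threshold in clone 2 only, where the direct test gave a difference between the clones of −0.77.

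The partners of the receptors were described from 7 lists with 84 genes, of which 72 were tested. Of these, 28 (38.9%) were higher and 10 (13.9%) lower by the same call, against 14.9% and 8.7% of all tested genes. Of 19 WNT ligands in the count table, 11 were tested. Of the tested ligands, 8 (72.7%) were called higher and 3 were not called, with a median LFC of 3.30. WNT3A and WNT10B, at 0 counts in both WT libraries, passed the filter only through PCGF6-KO libraries and could only be called higher. Such genes raise this share and this median. With at least 10 counts in every library, 3 ligands were called higher. The summed ligand level was 18.3 and 19.0 CPM in WT, against 255 to 259 in clone 1 and 357 to 360.2 in clone 2. WNT3A, a β-catenin ligand, was at 0 counts in WT, replicate 1 and replicate 2, and had 196, 147, 196 and 146 in the PCGF6-KO libraries. WNT10B also had 0 counts in WT and had 126, 113, 60 and 71 in PCGF6-KO. WNT5B had 2 and 7 counts in WT and between 1169 and 1667 in PCGF6-KO, and it too passed the filter only through PCGF6-KO libraries.

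Of 6 other WNT receptors and co-receptors tested, 2 (33.3%) were called higher, 1 (16.7%) lower and 3 were not called, with a median LFC of 0.29. The receptor tyrosine kinases ROR2 and ROR1, which share the cysteine-rich domain, went in opposite directions. ROR2 went from 14.5 ± 2.91 CPM in WT (n = 2) to 44.1 ± 3.55 in PCGF6-KO (n = 4 libraries of 2 clones), an LFC of 1.602 (SE 0.13, adjusted p = 2.6e-05). ROR1 went from 162 ± 19.9 CPM to 89.9 ± 11.8, an LFC of −0.85 (SE 0.12, adjusted p = 0.000569). The co-receptors were not called, with LFCs of 0.21 for LRP5 (adjusted p = 0.0554) and −0.24 for LRP6 (adjusted p = 0.0533).

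The ubiquitin ligases RNF43 and ZNRF3 remove Frizzled from the cell surface, and R-spondins with LGR receptors counter them. Of 8 genes of this turnover list tested, 5 (62.5%) were called higher, 1 (12.5%) lower and 2 were not called, with a median LFC of 2.41. The gene called lower was LGR6, named after its values were seen (LFC −0.77, adjusted p = 0.0414). That call was lost by DESeq2, without the filter on low counts, without replicate 1 or 2 of WT, without replicate 1 of clone 1 and without replicate 1 or 2 of clone 2. With at least 10 counts in every library, 2 genes of this list and 3 WNT ligands were called higher, with fewer genes of both lists tested. RNF43 had 12 and 13 counts in WT and between 301 and 409 in PCGF6-KO, an LFC of 4.72 (SE 0.18, adjusted p = 3.6e-07). RSPO3 and LGR5, which act against it, each had 1 and 0 counts in WT. Both passed the filter on low counts only through PCGF6-KO libraries, so a call in the higher direction was close to fixed. RSPO3 had 209 and 195 counts in clone 1 and 625 and 524 in clone 2, and LGR5 had 32 and 37 in clone 1 and 95 and 71 in clone 2. RNF43, of the removal arm, and RSPO3 and LGR5, of the protection arm, were thus higher in the same libraries.

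Other proteins carry the Frizzled-type cysteine-rich domain, among them the secreted SFRP proteins that bind WNT. Of 9 tested, 2 (22.2%) were called higher, 3 (33.3%) lower and 4 were not called. The count called higher was 1 with at least 10 counts in every library. The count called lower was 1 without replicate 1 or replicate 2 of WT. SFRP1 was called lower, with 10494 and 12156 counts in WT and between 297 and 359 in PCGF6-KO. CPZ went from 3.24 ± 0.0724 CPM in WT to 1.39 ± 0.481 for clone 1 and 1.81 ± 0.00889 for clone 2 (pooled adjusted p = 0.0153), and COL18A1 from 314 ± 9.60 to 712 ± 45.2 (adjusted p = 4.9e-06).

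Of 13 membrane and extracellular partners tested, 6 (46.2%) were called higher, 2 (15.4%) lower and 5 were not called. The count called lower was 1 without replicate 1 or replicate 2 of WT and with at least 10 counts in every library. WLS, which carries WNT proteins to the cell surface, rose from 2.71 ± 0.690 CPM in WT to 246 ± 3.77 in PCGF6-KO, an LFC of 6.51 (SE 0.12, adjusted p = 1.1e-08). NOTUM, an enzyme that removes the lipid from WNT, had 5 and 0 counts in WT and between 186 and 266 in PCGF6-KO (adjusted p = 2.4e-05). NOTUM passed the filter on low counts only through PCGF6-KO libraries, so a call in the higher direction was close to fixed. APCDD1, a membrane inhibitor of WNT signaling, had 11 and 14 counts in WT and between 247 and 321 in PCGF6-KO (adjusted p = 9.1e-07).

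Downstream of the receptors, 4 of 16 tested genes of Dishevelled and its partners (25%) were called higher and 12 were not called, with a median LFC of 0.07, where 14.9% of all tested genes were called higher and 23.6% in either direction. The Dishevelled genes themselves were not called, with LFCs of −0.52 for DVL1 (adjusted p = 0.00161), 0.35 for DVL2 (0.00342) and 0.07 for DVL3 (0.344). Those called higher included AXIN2, a feedback target of the pathway (24.4 ± 1.58 CPM in WT and 152 ± 9.07 in PCGF6-KO), and the Dishevelled-binding DACT1 (15.1 ± 0.262 and 93.2 ± 6.73 CPM) and DACT3 (1.33 ± 0.0232 and 5.30 ± 0.947 CPM).

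Of 9 planar polarity partners tested, 1 (11.1%) was called higher, 3 (33.3%) lower and 5 were not called, against 14.9% and 8.7% of all tested genes. VANGL1, a core membrane component, had an LFC of 1.41 (SE 0.13, adjusted p = 3.8e-05). PRICKLE1, CELSR2 and CELSR3 had LFCs of −0.87, −0.84 and −0.75 (adjusted p = 0.00018, 0.00173 and 0.000224).

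**Figure D4:**
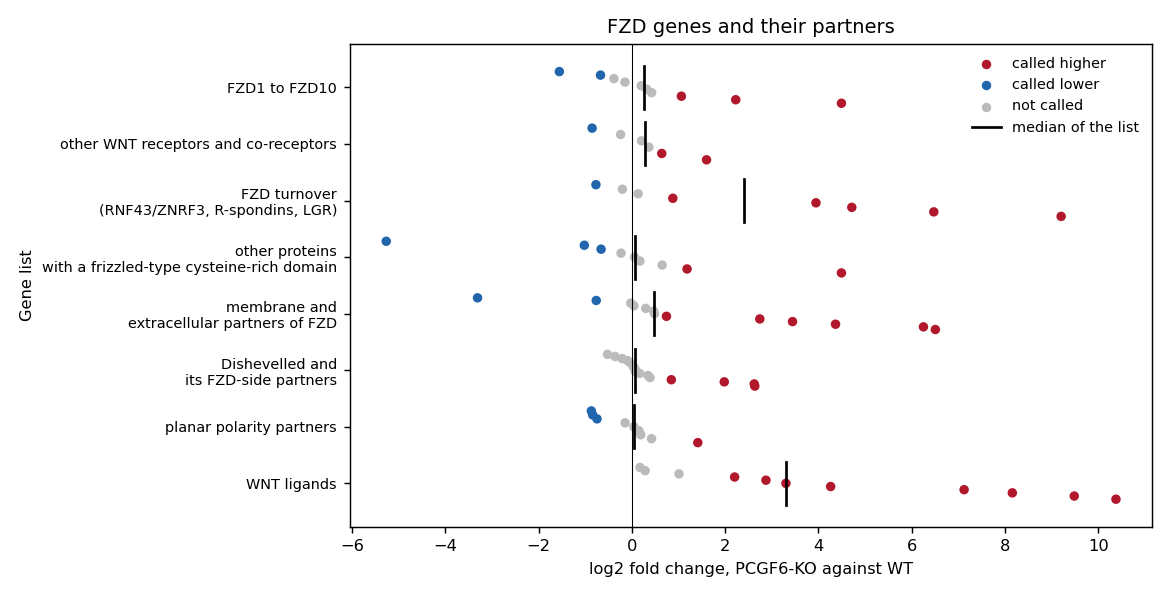
Log2 fold change between PCGF6-KO and WT for the FZD genes and for each partner list, with 1 point per tested gene coloured by its call and a black line at the median of the list. The WNT ligands (median 3.30) and the turnover genes (median 2.41) lay furthest to the right, while the FZD genes spread to both sides of 0. Both of these partner lists hold genes almost without counts in WT, which passed the filter only through PCGF6-KO libraries.

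Profiles over the 6 libraries were compared by the root-mean-square difference of centred log2 CPM, with 0.5 CPM added before the log. The genes nearest to a member were found among 13862 other genes. For FZD10 these were CDH13 (0.0553) and NTS (0.0606), where NTS had a mean of 39.2 CPM for WT, 359.8 for clone 1 and 538 for clone 2. For FZD5 they were TTC9 (0.0589) and ITPR2 (0.0865), and for FZD1 TBC1D23 (0.0961) and NEBL (0.0976). The added 0.5 CPM exceeded the WT mean of FZD10 (0.455 CPM). Its 17.2-fold (clone 1) and 28.6-fold (clone 2) levels relative to WT therefore enter this measure as smaller differences. The nearest genes are a description over 6 libraries that share 3 groups.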

How the data were processed

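The authors trimmed the reads with Trim Galore (0.6.2), aligned them to GRCh38 with HISAT2 (2.1.0), counted them per gene with featureCounts and deposited the raw counts of 6 RNA-seq libraries with a length for each gene. Which annotation was counted, with what strand option and how multi-mapping reads were treated is not given in the sources used here, so counts of overlapping genes are uncertain.

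Genes with low counts were removed with filterByExpr, TMM factors scaled the rest, and the quasi-likelihood test of edgeR (4.0.16, R 4.3.3) was run with both clones pooled against WT and with 3 groups, for each clone against WT and clone 2 against clone 1. Standard errors are the log2 fold change divided by the root of the F statistic, and 95% intervals use the degrees of freedom of the fit. All adjusted p are Benjamini-Hochberg values over 17672 genes. Alternatives covered the tool (DESeq2 1.42.0), the scaling (upper quartile, RLE), the filter, the threshold, how clones were combined, fits restricted to a pair of groups, a block for the replicate number, and the removal of single libraries. GENCODE 44 lengths were added after the data were seen. Gene models come from GENCODE 44, and coding sequences were aligned globally with Biopython (1.88). Partners are named where both clones were called in the same direction with a mean log2 CPM of 1 or more, at most 3 per direction and list, and LRP5, LRP6, the Dishevelled genes, LGR6 and FZD10-DT were added after their values were seen. The members and lists were chosen with earlier results of these data known. Libraries of a group differed by more than sampling noise (chi-square per degree of freedom 2.4 to 4.5), so none was treated as deposited more than once, which does not show that they came from separate cultures. The steps were checked on simulated counts. For the pooled comparison both clones were given the same fold changes, so the check does not cover clones that differ.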

Additional observations from a re-analysis of the deposited data

Results flagged for a closer look

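FZD7 and FZD10 differed between the 2 PCGF6-KO clones in a direct test. The log2 difference of clone 2 against clone 1 was −0.77 for FZD7 and 0.73 for FZD10, so the clone with more FZD10 had less FZD7. FZD7 was lower in both libraries of clone 2 than in both of clone 1, and FZD10 was higher. PCGF6 itself also differed between the clones, at 5.42 ± 0.345 CPM in clone 1 and 10.1 ± 0.285 CPM in clone 2 (SD, n = 2 each).

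For FZD3, 1 of the 4 PCGF6-KO libraries stood apart. Replicate 2 of clone 1 was at 49.2 CPM, while the other 3 did not exceed 39.7 CPM, and the gap took up a share of 0.848 of the whole range, above the 95% critical value of Dixon's test. All 10 FZD genes were examined in this way, and chance is expected to mark about 1 in 20 groups of independent values. The 4 libraries are 2 from each of 2 clones and are not independent, so the critical value and this rate are only a rough guide.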

How the results depend on the processing

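The alternatives include the main fit with the fold change threshold dropped, which keeps the main values and can only add calls. Of 496 log2 fold changes of FZD genes under all alternatives, 462 kept their direction and their side of the threshold. Of the rest, 14 lost the call, 17 gained it, in part only because the threshold was dropped, and 3 changed sign. Those 3 were small values that changed when 1 library was left out. Over the libraries left out, FZD8 in PCGF6-KO ranged from −0.34 to 0.043 (without replicate 1 of clone 1), FZD8 in clone 2 from −0.058 (without replicate 1 of clone 2) to 0.32, and FZD1 in clone 2 against clone 1 from −0.25 to 0.18 (without replicate 2 of clone 1). FZD1, FZD5 and FZD10 were called in PCGF6-KO under every alternative that tested them, though for FZD10 the direction was close to fixed by the filter.

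The count of FZD genes called lower in PCGF6-KO was 1 by DESeq2 and 1 with the replicate block, and 1 to 2 when a library was left out. Without the fold change threshold, 5 FZD genes were higher in PCGF6-KO, 5 were higher and 3 lower in clone 1, 4 were higher in clone 2, and 2 were higher in clone 2 than in clone 1. Leaving out a library gave 1 to 2 called lower in clone 1 and 1 to 2 called higher in clone 2 against clone 1. The latter count was 2 without a filter, 2 with the replicate block and 0 with at least 10 counts in every library, a filter that FZD10 does not pass and under which 1 was called higher in clone 2. Without division by gene length, the log2 ratio of the summed FZD level to WT was −0.54 for clone 1 and −0.76 for clone 2.

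Same-numbered libraries paired weakly at most. Over 13420 genes, the correlation of their deviations was 0.084 for WT with clone 1, 0.083 for WT with clone 2 and 0.199 for both clones. In PCGF6-KO against WT, the block moved the adjusted p of FZD7 to 0.0848 and of FZD9 to 0.0793, and neither was called. With the block, 4 FZD genes had an adjusted p under 0.05 whatever the fold change, FZD4 being at 0.0636 and FZD6 at 0.068, and LGR6 was not called (adjusted p = 0.0704). In the fits with 3 groups, the block lowered the adjusted p of some FZD genes and raised that of others. It called FZD8 between the clones (0.66, adjusted p = 0.0317). Over all genes, removing the fold change threshold moved the count called lower in PCGF6-KO from 1537 to 2927, those called higher and lower in clone 1 from 2823 and 1556 to 4266 and 3736, those in clone 2 from 2983 and 2214 to 4629 and 4275, and those in clone 2 against clone 1 from 659 and 731 to 1883 and 1559. The last comparison had 382 higher with at least 10 counts in every library and 463 lower by DESeq2. The low counts of FZD9 and FZD8 limit what can be said of them.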
